A study of Drosophila melanogaster with 13 samples.

Results

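The genes described here encode the nuclear subunits of the mitochondrial respiratory chain and of ATP synthase. They were taken by gene symbol from the annotation of the fly genome: every symbol that begins with ND-, UQCR, ATPsyn, COX4, COX5, COX6, COX7 or COX8, together with *SdhA*, *SdhB*, *SdhC* and *SdhD*. This gave 84 genes, of which 76 had at least 20 counts summed over the 13 libraries and were tested among 13975 genes in all. The tested genes belong to complex I (38), complex II (4), complex III (7), complex IV (14) and ATP synthase, or complex V (13). By chromosome arm they fall on 2L (14), 2R (17), 3L (16), 3R (17), X (10) and 4 (2). Apart from that count minimum, the rule uses gene symbols alone.

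The respiratory chain passes electrons from NADH and succinate to oxygen through complexes I to IV, which lie in the inner mitochondrial membrane, and ATP synthase uses the resulting proton gradient to make ATP. Each complex except complex II is assembled from subunits encoded by nuclear genes and by the mitochondrial genome, so that products of the X chromosome, of the autosomes and of the mitochondrion meet in one particle. In male flies the single X is brought to the output of a pair of autosomes. General buffering of monosomic regions contributes to this, and so does the male-specific lethal complex, which carries *roX1* or *roX2* RNA. The X-linked and autosomal subunits of one complex therefore allow the output of the X to be set against that of the autosomes among genes with one shared task.

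The study compared gene expression in first instar male larvae with and without the *roX* RNAs. Wildtype larvae were y[1] w[1118] (3 libraries), the *roX1* mutant was y[1] w[1118] roX1[ex6] (4 libraries), the *roX2* mutant was y[1] cho[2] v[1] with the deletion roX2[9-4] (3 libraries), and the *roX1 roX2* mutant joined roX1[ex6] with roX2[9-4] on a recombinant X with y[1] and w[1118] (3 libraries), for which the study's methods also list v[1]. By those methods the crossover lay between cho and v, so v[1] and roX2[9-4] came from the *roX2* mutant stock. Only the mothers of the double mutant are listed with their X over a balancer X. All larvae were sons of mothers of these stocks crossed to males with a GFP-marked X balancer, chosen as larvae without GFP and pooled for RNA, so 1 set of autosomes came from the balancer stock and the genotypes were not isogenic. All carry y[1]. In the *roX2* mutant, cho[2], v[1], the lack of w[1118] in its listed genotype and the *roX2* deletion cannot be told apart. Between the double mutant and the *roX2* mutant, cho[2] and w[1118] cannot be told apart from roX1[ex6]. In the double mutant against wildtype or the *roX1* mutant, v[1] and the X segment that came with it cannot be told apart from the loss of *roX* RNA.

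The libraries held 45620194 to 83954893 counts on genes (median 61966067), and 1.36% to 2.12% of these fell on the genes described here. The targeted RNAs followed the labels: roX1 RNA was at 971 to 1130 normalised CPM (counts scaled to a common library size) in wildtype and at 0.769 to 4.06 CPM in both genotypes that lack it, and roX2 RNA was at 18.5 to 25.3 CPM in wildtype and at 0.0451 CPM or less in both that lack it. The first principal component of autosomal genes, with 62.4% of the variance, set 4 libraries apart from the other 9, namely 1 from wildtype (replicate 1), 2 from the *roX1* mutant (replicates 1 and 2) and 1 from the *roX2* mutant (replicate 4). Larval moult and cuticle markers were summed at 3190 to 13900 CPM in these 4 libraries and at 532 to 1750 CPM in the other 9.

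In wildtype larvae nearly all subunit genes were abundant. Levels are compared between genes as TPM (transcript abundance per length), which divides counts by the length of the annotated exons. Of the 76 genes, 15 are paralogs by symbol, that is, their symbol is that of another subunit gene followed by L, L1 or L2, where *COX6AL*, *COX6CL* and *ATPsynepsilonL* were matched to levy, *cype* and *sun*, the genes of those subunits. The other 61 subunit genes had a median wildtype level of 342 TPM and reached 2320 TPM, while the paralogs had a median of 0.218 TPM and none was above 4.67 TPM. The highest were *ATPsynC*, the subunit of the membrane ring that turns during ATP synthesis (2320 TPM), the catalytic subunit gene *ATPsynbeta* on chromosome 4 (1990 TPM), the peripheral stalk subunit gene *ATPsynB* (1050 TPM), and *COX7B* and *COX5A* of cytochrome c oxidase (1020 and 1010 TPM).

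The 10 X-linked genes lay within the range of the autosomal ones. Their wildtype median was 218 TPM, against 357 TPM for the 49 subunit genes on 2L, 2R, 3L and 3R that are not paralogs. *COX6B* was the highest at 755 TPM and *ND-B18* the lowest at 116 TPM. Between them, *ND-75*, *ND-24*, *ND-20*, *ND-18* and *ND-B16.6* had 215 to 230 TPM, and *ATPsyndelta*, *ND-ASHI* and *ND-B14.5A* had 127 to 134 TPM, so that neighbours within each of these groups differed by little. The level of *ATPsyndelta* is understated by an amount that was not measured, because 35.6% of its exon bases also lie in exons of *CG2962* on the opposite strand.

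**Figure D1:**
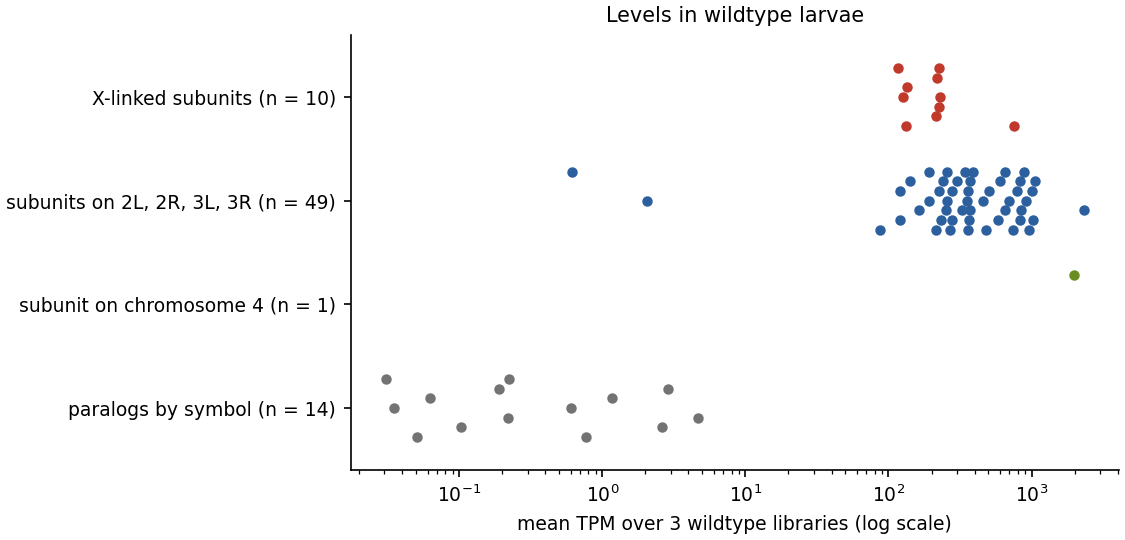
Mean TPM over the 3 wildtype libraries (log axis) of subunit genes on the X, on 2L, 2R, 3L and 3R and on chromosome 4, and of paralogs by symbol; each point is 1 gene and its height within a row has no meaning. *ND-24L*, at 0 in wildtype, and 1 gene that is not reported are left out. Apart from *ND-B8* (0.616 TPM) and *ND-MWFE* (2.04 TPM), all plotted subunit genes that are not paralogs lie above all paralogs.

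*ND-B8* and *ND-MWFE*, named for bovine complex I subunits, stood apart from the other subunit genes. *ND-B8* had 100 counts summed over all 13 libraries and *ND-MWFE* had 896. Exon bases shared with other genes made up 15.4% of *ND-B8* and 35.0% of *ND-MWFE*.

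Reads that fall on overlapping exons of 2 genes were not counted for either, and this removed 2 X-linked subunits from view. *ND-MNLL* lies wholly within exons of *CG45089* on the same strand, *UQCR-14* wholly within exons of *CG32576* on the opposite strand, and both had 0 counts in every library. The same held for *COX5BL* on 2L, which lies within *Trmt6* on the opposite strand. Of 69 protein-coding genes wholly inside exons of opposite-strand genes, 64 had 0 counts, against 153 of 9207 protein-coding genes with no exon overlap, so that strand did not separate such pairs. The X-linked set is therefore the 10 genes with counts, each of which had at least 1246 counts in every library.

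The subunit genes moved together between libraries. For the 59 subunit genes that are not paralogs and had at least 1000 counts, the median Pearson correlation of log2 CPM between pairs of genes over the 13 libraries was 0.91, and it was 0.95 for deviations from the genotype means. These correlations are across libraries that share depth, scaling and larval stage, and are given as a description. Within genotypes the SD of log2 CPM had a median of 0.30 over the X-linked genes and of 0.32 over all subunit genes that are not paralogs. Differences between genotypes in the level of any single subunit gene are therefore read against a shared swing of that size. In RNA from whole larvae, fewer cells of a type and less RNA per cell cannot be told apart.

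In the *roX1 roX2* mutant the X-linked subunit genes were at 0.458 to 0.585 of their wildtype level, while autosomal subunits of the same complexes stood between the X-linked genes and wildtype. Of the 10 X-linked genes, 9 were lower than in wildtype by edgeR's quasi-likelihood test at an adjusted p under 0.05 (Benjamini-Hochberg over all genes tested), and none of the 66 others passed in either direction. In this comparison 5.67% of all genes were called lower and 3.41% higher. Lower calls made up 27.0% of X genes and 1.77% of genes on 2L, 2R, 3L and 3R, and 38.5% of the 470 X genes at least as abundant as the lowest X-linked subunit gene. The median log2 fold change was -0.96 over the 10 X-linked genes (range -1.13 to -0.77) and -0.55 over all 2142 X genes tested. The count of 9 changed when single libraries were left out: it was 0 without double mutant replicate 2 and 0 without replicate 3, while the median of the X-linked genes was then -0.90 and -0.88, and 10 without replicate 4. It was 6, 5 and 1 without wildtype replicates 1, 3 and 4, and 8 without the 4 libraries that stood apart. By DESeq2 it was 13, made up of the 10 X-linked genes, *COX7A*, *ATPsynC* and *ATPsynO*.

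Among the core subunits of complex I 3 are X-linked, and all 3 fell. *ND-75* (X:8248651-8251687, minus strand, release 6 of the fly genome) is the fly counterpart of mammalian NDUFS1, a large subunit that holds iron-sulfur clusters near the site of NADH oxidation. Its normalised CPM was 310, 371 and 368 in wildtype and 185, 185 and 243 in the *roX1 roX2* mutant. The 3 double mutant libraries were all below the 3 wildtype libraries, with a log2 fold change of -0.77 (SE 0.20, adjusted p = 0.0327, edgeR). *ND-24* (X:17632089-17633509, plus strand), counterpart of the iron-sulfur subunit NDUFV2, had 128, 135 and 157 CPM in wildtype and 65.3, 63.1 and 86.9 CPM in the double mutant. Its libraries did not overlap either, and its log2 fold change was -0.97 (SE 0.20, adjusted p = 0.0148, edgeR). *ND-20* (X:15985473-15986808, minus strand), counterpart of NDUFS7, which holds the last iron-sulfur cluster before ubiquinone, had 171, 160 and 190 CPM in wildtype and 80.5, 78.2 and 108 CPM in the double mutant. This was a log2 fold change of -0.96 (SE 0.20, adjusted p = 0.0132, edgeR), again with no overlap.

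The 3 core subunit genes on 2L, 3L and 3R did not pass the test. *ND-51*, counterpart of NDUFV1, which binds NADH, had 282, 301 and 317 CPM in wildtype and 249, 237 and 294 CPM in the double mutant, and these ranges overlapped (log2 fold change -0.20, adjusted p = 0.343, edgeR). *ND-30* and *ND-23*, counterparts of NDUFS3 and NDUFS8, had log2 fold changes of -0.18 and -0.31. Within the core of complex I the X-linked median was thus -0.96 and that of these 3 autosomal genes was -0.20.

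The 5 X-linked accessory subunits of complex I, which surround the core, had a median log2 fold change of -0.95. *ND-B14.5A* (X:2172526-2173432, plus strand; counterpart of NDUFA7) had 58.9, 55.9 and 63.9 CPM in wildtype and 25.6, 21.5 and 38.0 CPM in the double mutant, the largest change among the 5 (-1.07, SE 0.27, adjusted p = 0.0336, edgeR). *ND-ASHI* (X:6677262-6679118, minus strand; NDUFB8) had 101, 102 and 117 CPM against 49.9, 43.7 and 66.0 CPM (-1.0, SE 0.24, adjusted p = 0.0237, edgeR). In both genes every double mutant library was well below every wildtype library. *ND-18* (X:19492421-19493337, plus strand; NDUFS4) and *ND-B16.6* (X:6349016-6350401, minus strand; NDUFA13) followed with -0.95 and -0.90 (adjusted p = 0.0327 and 0.0344, edgeR). *ND-B18* (X:15063733-15064926, plus strand; NDUFB7) had 72.5, 71.7 and 83.4 CPM in wildtype and 38.4, 31.8 and 56.2 CPM in the double mutant. It was the X-linked gene that did not pass: its libraries did not overlap, but its log2 fold change of -0.85 had an adjusted p of 0.0729 (SE 0.27, edgeR).

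Complex IV and ATP synthase have 1 X-linked gene each in the set. *COX6B* (X:19740537-19744335, minus strand) encodes a subunit on the outer face of cytochrome c oxidase that in mammals lies between the monomers of the dimer. It had 345, 320 and 373 CPM in wildtype and 141, 143 and 191 CPM in the double mutant, the largest fall of all 76 genes among those with a mean of at least 50 counts in either genotype (fell by 54.2%; log2 fold change -1.13, SE 0.22, adjusted p = 0.0101, edgeR). *ATPsyndelta* (X:10212970-10217393, plus strand) encodes a subunit of the central stalk of ATP synthase. It had 280, 281 and 328 CPM in wildtype and 125, 128 and 188 CPM in the double mutant, with no overlap (-1.01, SE 0.23, adjusted p = 0.0207, edgeR). All 10 X-linked genes had their 3 double mutant libraries below their 3 wildtype libraries, which 55.5% of all X genes also did. Of the 470 X genes at least as abundant as the lowest X-linked subunit gene, 327 did.

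**Figure D2:**
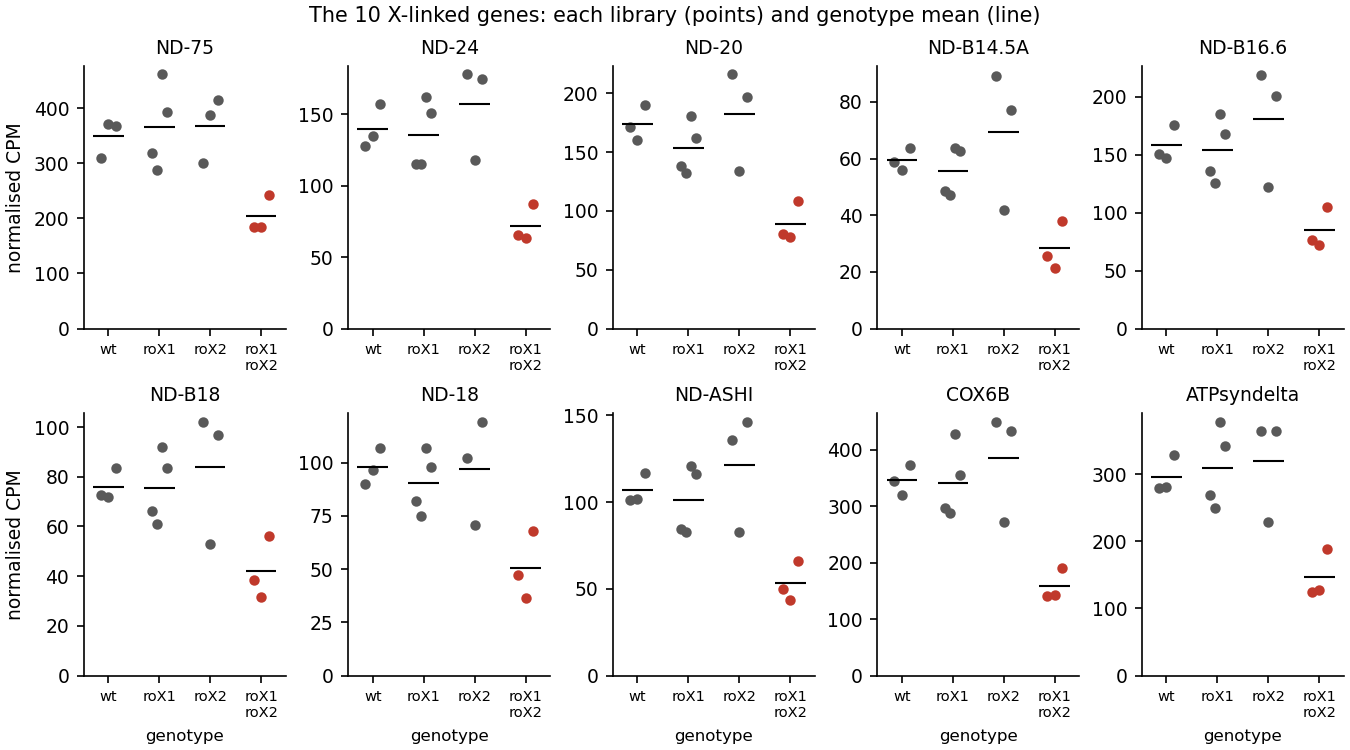
Normalised CPM of the 10 X-linked subunit genes in each library (points, axis from 0) by genotype, with the genotype mean as a line; double mutant libraries are red. In all 10 panels the 3 double mutant points lie below the 3 wildtype points, and the points of the single mutants spread around the wildtype points.

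By edgeR with all libraries no autosomal subunit gene was called in the double mutant, but 3 were called lower with only the genotypes compared (*ATPsynE*, *COX7A* and *ND-15*), 1 with TMM over major autosomes (*COX7A*) and 3 by DESeq2. The fold changes of the whole group leaned one way. All 49 subunit genes on 2L, 2R, 3L and 3R that are not paralogs had a log2 fold change below 0, from -0.79 to -0.06, with a median of -0.43. The median over all 11494 genes of these arms was 0.05, and over the 3309 of them in the same range of abundance it was -0.03. At an unadjusted p under 0.05 (edgeR) there were 10 of the 49, against 2296 of the 11494 genes of these arms in either direction. Among the 3309 in the same range of abundance there were 700. All double mutant libraries lay below all wildtype libraries in 22 of 49, against 11.8% of the genes of these arms. Among the 3309 in the same range of abundance this held for 549. The lean depended on which libraries were kept: with 1 library omitted the median was between -0.63, without replicate 4 of the double mutant, and -0.35, without replicate 2, and 47 to 49 of the 49 genes were below 0.

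The lean differed in size between complexes. The median of the autosomal genes was -0.30 in complex I, -0.38 in complex II, -0.36 in complex III, -0.52 in complex IV and -0.56 in ATP synthase, and whether these differ was not tested. *COX7A*, a cytochrome c oxidase subunit, had the lowest autosomal value (-0.79, adjusted p = 0.0658, edgeR). *ATPsynC* had 2540, 2360 and 2670 CPM in wildtype and 1410, 1550 and 1910 CPM in the double mutant, without overlap (-0.63, adjusted p = 0.0828, edgeR). *ATPsynbeta*, on chromosome 4, had 2870, 2590 and 2820 CPM against 1610, 1980 and 2310 CPM (-0.49, adjusted p = 0.139, edgeR). The highest value was that of *ND-13B*, an accessory subunit of complex I, whose 3 double mutant libraries at 63.6 to 94.9 CPM spanned the wildtype range of 71.2 to 86.3 CPM (-0.06).

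Complex II, succinate dehydrogenase, is the complex with no X-linked and no mitochondrially encoded subunit in the set, and all 4 of its genes are autosomal. *SdhA*, the flavoprotein that oxidises succinate, had 338, 342 and 341 CPM in wildtype and 229, 243 and 283 CPM in the double mutant, a log2 fold change of -0.44 (adjusted p = 0.106, edgeR) with no overlap. The iron-sulfur subunit gene *SdhB* and the membrane anchor genes *SdhC* and *SdhD* had -0.24, -0.32 and -0.43, and their libraries overlapped.

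**Figure D3:**
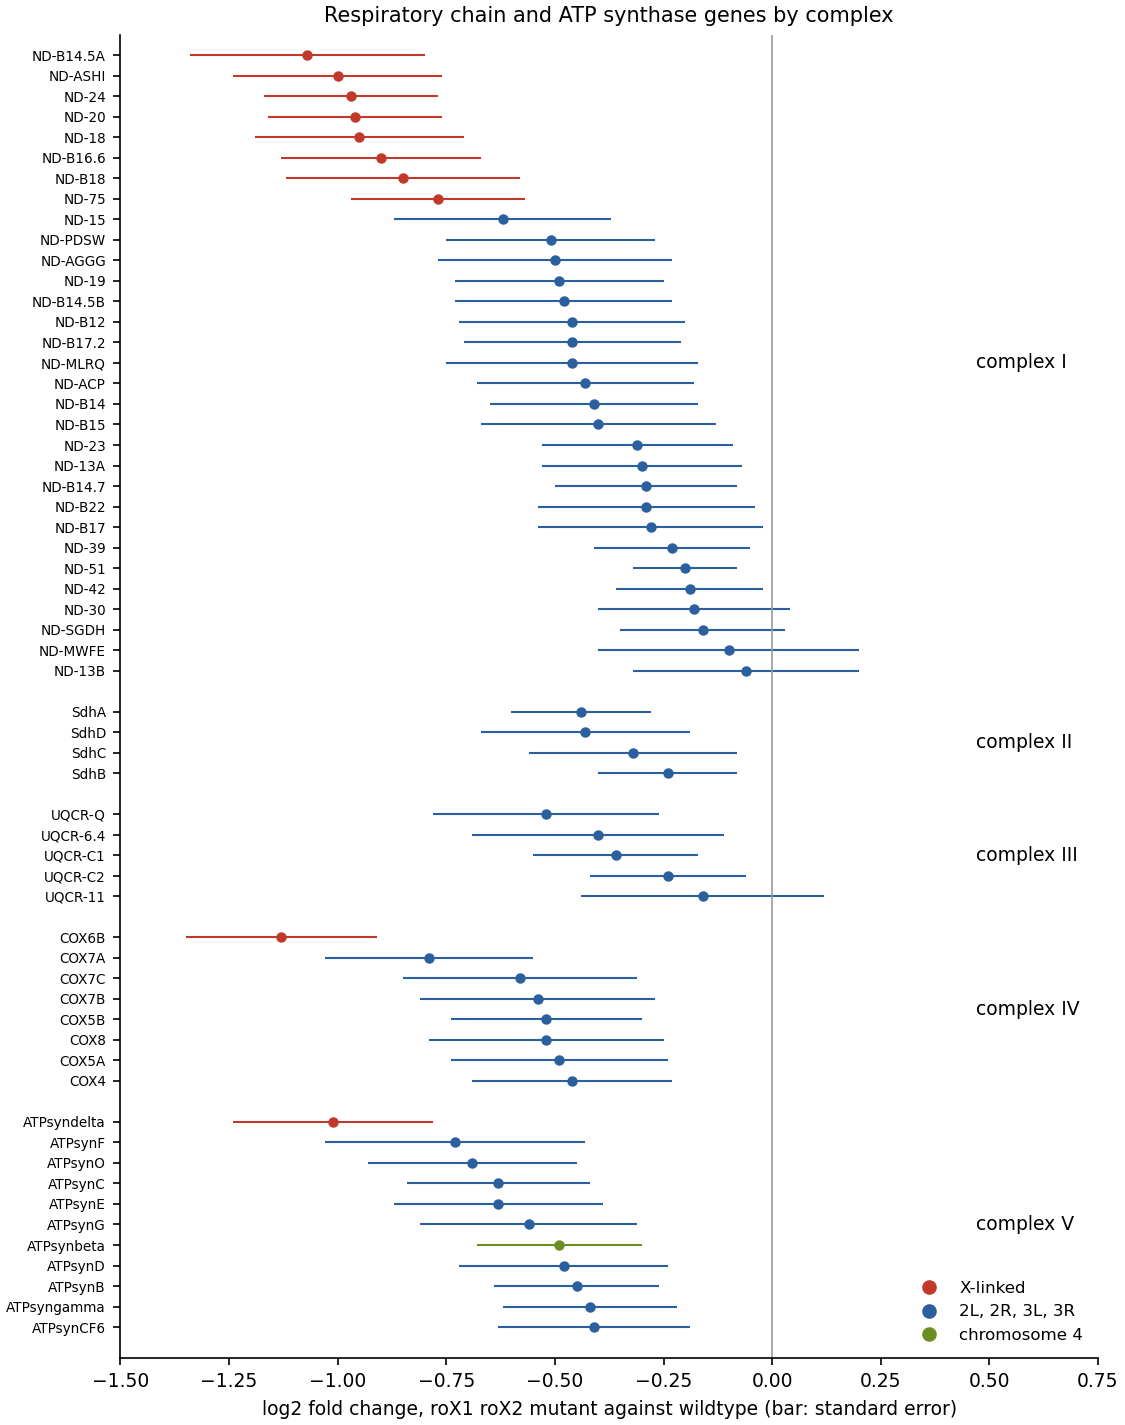
Log2 fold change of the *roX1 roX2* mutant against wildtype (horizontal axis, bars are standard errors) for tested subunit genes that are not paralogs, sorted within complex and coloured by chromosome; *ND-B8*, with 100 counts in all, and 1 gene that is not reported are left out. The X-linked genes of complexes I, IV and V (red, -1.13 to -0.77) lie to the left of all other plotted subunits of the same complex; *COX7A*, at -0.79, is the lowest autosomal gene.

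Markers of larval body muscle, a tissue rich in mitochondria, were also lower in the double mutant. Of 13 such markers, 2 of them X-linked, 10 were called lower in the double mutant, against 5.67% of all genes. Their median log2 fold change was -0.84, and none of the 13 was called in either single mutant. Summed over the list, they took 41400 to 48700 CPM in wildtype and 25200 to 32400 CPM in the double mutant. These sums were scaled to counts on genes alone, while subunit values are TMM-normalised, so the series are not on one scale. The TMM factors were 1.169, 1.159 and 1.06 in double mutant replicates 2, 3 and 4. They were 0.9755 to 1.031 in wildtype and 0.8749 to 1.036 in the single mutants, with 0.8749 in *roX2* mutant replicate 2. Whether muscle markers and autosomal subunit genes moved together was not tested, and values of single libraries follow. Replicate 4 of the double mutant had muscle markers at 28400 CPM and autosomal subunit genes at -0.09 on the log2 scale relative to the wildtype mean. Its replicates 2 and 3 had 25200 and 32400 CPM with -0.60 and -0.58. In the *roX2* mutant, replicates 2, 3 and 4 had 30200, 49200 and 37700 CPM with 0.40, -0.36 and 0.33. In the *roX1* mutant, replicates 1 and 2 had 35800 and 34100 CPM with -0.31 and -0.40, and replicates 3 and 4 had 44700 and 44500 CPM with 0.21 and 0.11. Markers of other tissues and of the moult also differed in sum. Neuron markers took 935 to 1240 CPM in wildtype and 1460 to 1700 CPM in the double mutant, with 0 of 5 called. Dividing by the TMM factors would bring the neuron sums of the double mutant closer to wildtype and its muscle sums further below it. Fat body markers took 5580 to 5700 CPM against 3230 to 4960 CPM, with 0 of 9 called and a median of -0.58, and moult and cuticle markers 1660 to 3190 CPM against 532 to 1490 CPM, with 0 of 16 called and a median of -5.04. The part of these tissues and of larval stage in the autosomal values was not tested.

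Within each library, the X-linked subunit genes can be set against the autosomal ones, which removes the scaling between libraries and the swing that all subunit genes share. The mean log2 CPM of the 10 X-linked genes relative to the wildtype mean was -1.10, -1.22 and -0.63 in the 3 double mutant libraries, and that of the 49 autosomal genes was -0.60, -0.58 and -0.09. The difference, X-linked minus autosomal, was -0.50, -0.64 and -0.53, that is, 0.706, 0.642 and 0.692 of the wildtype ratio. In wildtype it lay between -0.03 and 0.02, in the *roX1* mutant between -0.02 and 0.08, and in the *roX2* mutant between -0.10 and 0.02. Replicate 4 of the double mutant thus had autosomal subunit genes close to wildtype and the same shortfall of the X-linked ones as the other replicates. As the genes were chosen with results in view, no test is given for this difference.

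The same difference was seen in each complex that has both kinds of subunit. In complex I it was -0.53, -0.72 and -0.57 in the 3 double mutant libraries and between -0.13 and 0.07 in the other 10. In complex IV, *COX6B* stood at -0.51, -0.53 and -0.65 relative to the autosomal subunits, against -0.09 to 0.17 elsewhere. In ATP synthase, *ATPsyndelta* stood at -0.49, -0.47 and -0.42, against -0.06 to 0.15. The values of the double mutant lay below those of all other libraries in all 3 complexes.

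Set against the genome, the difference between X-linked and autosomal subunit genes was about that of the X at large. Over all genes tested it was -0.48, -0.52 and -0.51 in the 3 double mutant libraries. As a difference of median log2 fold changes against wildtype it was -0.53 for subunit genes without paralogs (-0.56 with them) and -0.61 for all genes. Relative to all genes of the same chromosomes, the median was lower by 0.41 on the log2 scale for the X-linked genes and by 0.49 for the autosomal ones. Whether that offset is particular to the subunit genes was not tested, and the other lists of mitochondrial genes given at the end had medians of -0.46 to 0.01.

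**Figure D4:**
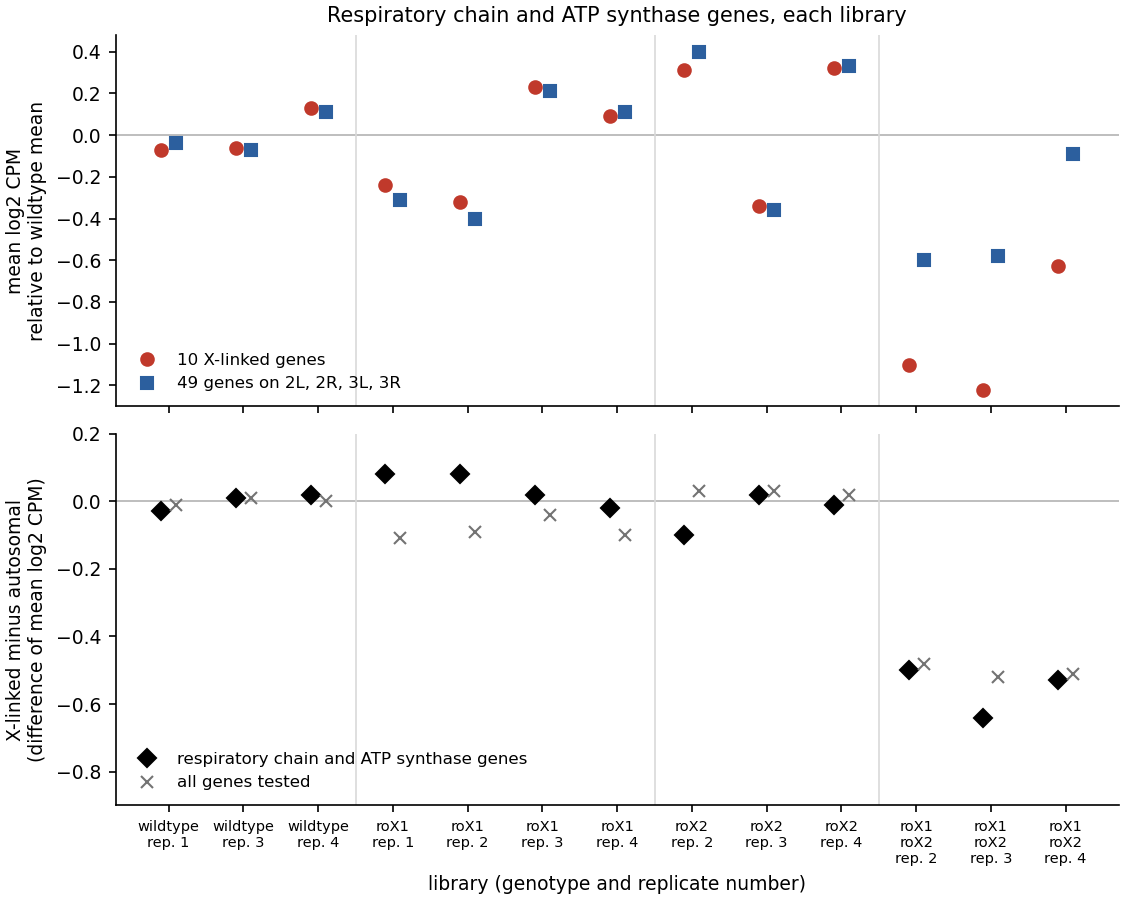
Top, mean log2 CPM relative to the wildtype mean of the 10 X-linked (circles) and 49 autosomal (squares) subunit genes in each of the 13 libraries. Bottom, X-linked minus autosomal for the subunit genes (diamonds) and for all genes tested (crosses). The top values swing between -1.22 and 0.40, while the bottom values of the subunit genes fall in 2 ranges, -0.64 to -0.50 in the double mutant and -0.10 to 0.08 in all other libraries.

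Loss of *roX1* alone gave no call among the 76 genes, where 0.572% of all genes were called lower and 0.751% higher. No gene reached an unadjusted p under 0.05, and DESeq2 called 0 of the 76. The median log2 fold change was -0.04 for the X-linked genes (range -0.18 to 0.06, SE 0.18 to 0.25) and -0.06 for the autosomal subunit genes without paralogs, of which 38 of 49 were below 0. Without the 4 libraries that stood apart these medians were 0.10 and 0.11, and 9 of 49 were below 0. *ND-20* had the lowest X-linked value, with 138, 132, 181 and 162 CPM in the *roX1* mutant against 160 to 190 CPM in wildtype, and these overlapped (-0.18, adjusted p = 0.691, edgeR). The *roX1* mutant libraries themselves were split: the X-linked genes stood at -0.24 and -0.32 in replicates 1 and 2, which lie on the high side of the first component, and at 0.23 and 0.09 in replicates 3 and 4, with the autosomal genes moving alike. Over all genes, X minus autosomal was -0.11 to -0.04 in the 4 *roX1* mutant libraries, and -0.01 to 0.01 in wildtype. The subunit genes, at -0.02 to 0.08, did not show that offset, and whether they differ from other X genes was not tested.

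Loss of *roX2* alone also gave no call among the 76 genes, where 0.186% of all genes were called lower and 0.165% higher. At an unadjusted p under 0.05 (edgeR) there were 4, against 1510 of all 13975 genes, and DESeq2 called 0. The 4 were *ND-24L*, *COX4L*, *UQCR-11L* and *ND-MWFE*, with 21, 331, 435 and 896 counts summed over the 13 libraries. The X-linked median was 0.15 (range -0.01 to 0.22) and the autosomal median without paralogs was 0.17, against 0.02 and 0.01 for all X and all autosomal genes. This offset rested on which libraries were kept: the medians were 0.34 and 0.36 without *roX2* mutant replicate 3, and -0.04 and 0.00 without the 4 libraries that stood apart. *COX6B* is an example, with 449, 272 and 433 CPM in replicates 2, 3 and 4 of the *roX2* mutant and 320 to 373 CPM in wildtype (0.16, adjusted p = 0.866, edgeR). Replicate 3 lay below all wildtype libraries and the other replicates above them. Replicate 2 also held the largest share of counts from the mitochondrial genome, 24% against 11.3% to 15% in the other libraries.

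Set against each single mutant, the double mutant had all 10 X-linked subunit genes lower. Against the *roX1* mutant, 11 of 76 genes were lower and none higher (11.6% of all genes and 35.2% of X genes were lower in this comparison, and 6.45% of all genes higher). The 11 were the X-linked genes, at a median of -0.89, and *ATPsynC*, with 2060 to 3180 CPM in the *roX1* mutant and 1410 to 1910 CPM in the double mutant (-0.68, adjusted p = 0.0366, edgeR). The count was 1 without double mutant replicate 2, 2 without double mutant replicate 3, 7 without *roX1* mutant replicate 3 or 4, and 17 without the 4 libraries that stood apart. Against the *roX2* mutant, 11 of 76 were lower and none higher (5.44% of all genes and 28.1% of X genes were lower, and 2.23% of all genes higher). These were the X-linked genes, at a median of -1.11, and *ND-15*, an accessory subunit of complex I, with 145, 72.5 and 130 CPM in the *roX2* mutant and 52.9, 57.2 and 71.6 CPM in the double mutant (-0.94, adjusted p = 0.0422, edgeR). Here the count was 39 without *roX2* mutant replicate 3, 26 with DESeq2, 5 without the 4 libraries that stood apart, 3 without *roX2* mutant replicate 4, and 1 and 0 without double mutant replicates 2 and 3. All these comparisons share the double mutant libraries.

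The interaction of the mutations asks whether loss of *roX2* had another effect in *roX1* mutant than in wildtype larvae. The median interaction on the log2 scale was -1.06 over the X-linked genes and -0.55 over the autosomal subunit genes without paralogs, against -0.52 over all X genes and 0.02 over all genes on 2L, 2R, 3L and 3R. All 10 X-linked genes had an unadjusted p under 0.05 (edgeR), against 898 of all 2142 X genes. Of the 470 X genes at least as abundant as the lowest X-linked subunit gene, 209 did. After adjustment only *COX6B* passed (-1.27, SE 0.29, adjusted p = 0.044, edgeR), where 2.35% of all genes and 9.1% of X genes were called with a negative interaction. *COX6B* went from 346 ± 26.6 CPM in wildtype (SD, n = 3) to 385 ± 98 CPM (n = 3) on loss of *roX2*, and from 342 ± 64.9 CPM (n = 4) to 158 ± 28.4 CPM (n = 3) on loss of *roX2* in the absence of *roX1*. The call was lost when any library other than *roX2* mutant replicate 3 was left out, and 10 genes passed without that replicate.

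The paralogs by symbol form a separate layer. In flies many duplicated genes for mitochondrial proteins are expressed chiefly in the testis. The annotation holds 21 paralogs among the 84 genes, none of them X-linked, and 5 have an X-linked parent. None of the 15 tested was called in any comparison. Their summed level was 3.23 to 5.05 CPM in 12 libraries and 7.81 CPM in *roX2* mutant replicate 3, which held 413 counts over the 15 genes.

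That library had the highest CPM of 10 of the 15 paralogs. Over the 4206 genes with no more counts than the most abundant paralog, it had the highest value for 27.6%, so the pattern is shared with many genes of low counts. *COX4L* had 81 counts there, against 33 and 16 in the other *roX2* mutant libraries and 14 to 19 in wildtype. *COX6CL*, a paralog of the cytochrome c oxidase gene *cype*, had 26 counts there, 2 and 0 in the other *roX2* mutant libraries and 0 to 2 in wildtype. *ND-24L*, a paralog of the X-linked *ND-24*, had 14 counts there, 4 and 0 in the other *roX2* mutant libraries and 0 in all 3 wildtype libraries. That library was the highest for each of these 3 genes. Male germline markers were summed at 187 CPM in this library, 106 and 111 CPM in the other *roX2* mutant libraries and 132 to 158 CPM in wildtype, with the male germline gene *Mst84Da* at 0 in every library. The double mutant had 164 to 206 CPM of the same markers and 3.23 to 4.79 CPM of the paralogs.

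Without that library the picture of the paralogs in the *roX2* mutant changed. Their median log2 fold change against wildtype was 0.76 with it, 12 of 15 being above 0, and 0.29 without it, 8 of 15 being above 0. The lowest adjusted p with all libraries was 0.303 (edgeR). A paralog of another direction was *UQCR-11L*, with 20, 13 and 15 counts in the *roX2* mutant and 106, 25 and 35 in wildtype (log2 fold change -1.36, adjusted p = 0.375, edgeR).

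**Figure D5:**
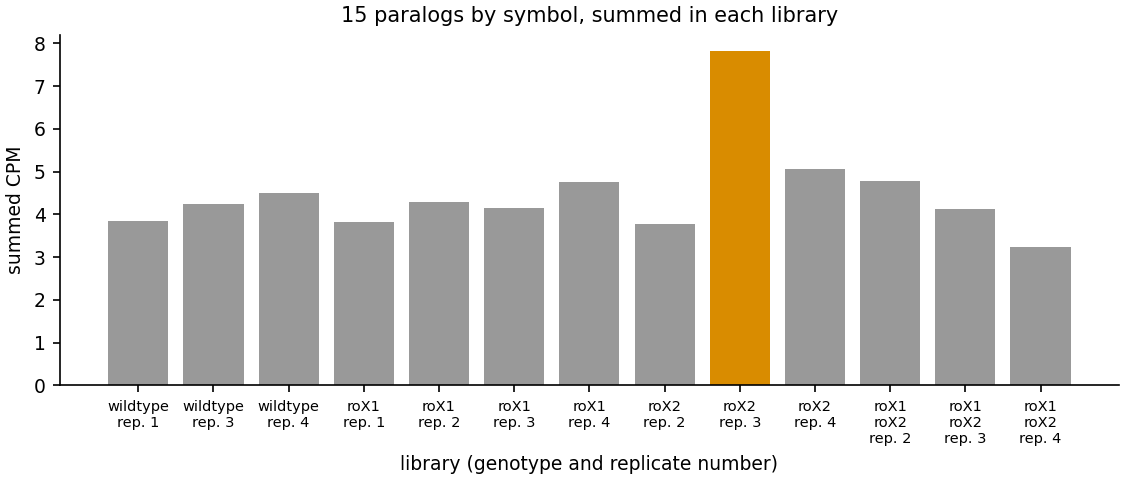
Summed CPM of the 15 paralogs by symbol in each library (bars from 0; *roX2* mutant replicate 3 in orange). That library stands at 7.81 CPM and the other 12 between 3.23 and 5.05 CPM.

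Genes that work beside these complexes were taken from fixed lists and matched by symbol, which found 11 of 13 genes listed as subunits with other names, 9 of 39 assembly factors, 22 of 30 genes of the tricarboxylic acid cycle, 6 of 7 genes of mitochondrial transport and 14 of 18 regulators, of which 12 were tested. Of the genes tested, 2 of 11, 2 of 9, 4 of 22, 2 of 6 and 2 of 12 are X-linked. In the double mutant against wildtype, 5.67% of all genes were called lower, with 27.0% of X genes and 1.77% of genes on 2L, 2R, 3L and 3R. Of the 11 genes listed as subunits with other names 2, both X-linked, were lower in the double mutant than in wildtype: *sun*, which encodes the epsilon subunit of ATP synthase (-1.28, adjusted p = 0.0207, edgeR), and *SdhBL*, a paralog of *SdhB* (-2.87, adjusted p = 0.0137, edgeR). The median of the 11 was -0.44. They include *Cyt-c1L*, *SdhAL* and *SdhBL*, which are paralogs by symbol, and the cytochrome c gene *Cyt-c-d*, so these values do not cover subunits alone. Of the 9 assembly factors found 1 was lower, the X-linked *Coa7* (-0.75), and the median was -0.26.

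In the tricarboxylic acid cycle, which feeds the chain with NADH and succinate, 4 of 22 genes were lower in the double mutant, against 5.67% of all genes. None was higher, the median was -0.46, and this list also holds the 4 Sdh genes. The 4 lower genes were the X-linked citrate synthase gene *kdn* (-0.89) and isocitrate dehydrogenase gene *Idh3a* (-1.10), and the autosomal *Idh3b* (-0.49) and *ScsbetaA* (-0.48). Of 6 genes of mitochondrial transport, among them ADP/ATP translocase and phosphate carrier genes and the outer membrane channel gene porin, 3 were lower: the X-linked ADP/ATP translocase genes *sesB* (-0.69) and *Ant2* (-0.79), and the autosomal phosphate carrier gene *Mpcp1* (-0.59). Among 12 regulators of mitochondrial biogenesis none was called, and their median was 0.01. In neither single mutant was any gene of these 5 lists called.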

How the data were processed

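RNA from pooled first instar male larvae was sequenced in 13 libraries of 4 genotypes, which the methods call biological replicates, prepared with a kit that does not mark strand. According to the methods and the submitters' processing notes, the authors aligned reads with STAR 2.5.1b and deposited raw counts per gene made with HTSeq 0.6.1, without normalisation. The methods state default settings for the counting and do not name the strand option. In the counts, as described above, strand did not separate overlapping genes. Summary lines of the counting program (10.3% to 23.8% of each library) were left out, and 247 of 17476 identifiers, not in Ensembl BDGP6.54, were kept in the fit only. Symbols, positions and exon lengths came from that annotation.

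The 13975 genes whose counts over all libraries reached a sum of 20 entered edgeR 4.0.16 (R 4.3.3) with TMM normalisation, as 1 quasi-likelihood model of the 4 genotypes. P-values were adjusted by Benjamini-Hochberg over all genes within a comparison, at 0.05. CPM values are TMM-normalised, except sums over marker lists and paralogs, which are scaled to counts on genes. Log2 CPM used a prior count of 2. Standard errors cover the spread between libraries. The fit was tested on simulated counts.

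The genes and lists were chosen with earlier results of these data known, so no p is given for any score over them. Described with values are all X-linked and chromosome 4 genes, called genes, the 5 most abundant, the Sdh genes and the extremes of each comparison; the paralogs come under the same rule but mostly as counts and ranges, and other autosomal subunits are named only as examples. Alternatives were DESeq2 1.42.0, TMM over major autosomes, a filter at a mean of 10 counts, no filter, a replicate block, only the genotypes compared, omission of the 4 libraries that stood apart, and omission of each library. Libraries of wildtype and of the *roX1* mutant with the same number had correlated deviations from their group means (0.694, 0.58 and 0.7). Some differently numbered ones did so too. The values were 0.689 for wildtype replicate 1 with *roX1* mutant replicate 2, 0.606 for 3 with 4 and 0.646 for 4 with 3. These values do not settle whether the numbers mark pairs. The main fit had no replicate block. The values of 1 gene that this rule would name are not reported here. No sequences are shown.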

Additional observations from a re-analysis of the deposited data

Results flagged for a closer look

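*COX6B* is listed because the effect of losing *roX2* differed between *roX1* mutant and wildtype larvae by the interaction test: -1.27 on the log2 scale (adjusted p = 0.044, edgeR's quasi-likelihood test). *ND-24L* is listed because 1 *roX1* mutant library lay far from the other 3: replicate 1 had 0.0158 CPM, which was 1 count, and the others had 0 counts. With 38 sets of libraries examined in this way, about 1 in 20 would be expected by chance. That rate does not apply to *ND-24L*, where any count beside others at 0 would have been flagged.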

How the results depend on the processing

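With paralogs included, the difference of median log2 fold changes between X-linked and autosomal subunit genes was -0.56 for the double mutant against wildtype. It ranged from -0.61 to -0.54 with each library left out, and kept its direction and size under all alternatives. Counts of called genes did not. Against wildtype, 9 lower genes became 0 to 10 with each library left out. Against the *roX1* mutant, 11 became 1 to 11 with each library left out, and 17 without the 4 libraries that stood apart. Against the *roX2* mutant, 11 became 0 to 39 with each library left out, 26 with DESeq2, 0 with only the genotypes compared and 5 without the 4 libraries. The single call of the interaction became 0 to 10 with each library left out, 8 with DESeq2, 3 with TMM over major autosomes, and 0 with no filter and without the 4 libraries. Over all genes, the lower calls against wildtype went from 793 to 316 without double mutant replicate 2, to 274 without replicate 3, to 1013 without the 4 libraries and to 1043 with only the genotypes compared, while DESeq2 gave 1351 lower and 864 higher, against 793 and 476 by edgeR. The cause of these changes was not tested.

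With the replicate block, 8 X-linked genes were lower in the double mutant against wildtype (*ND-B16.6* was lost), 11 against the *roX1* mutant and 10 against the *roX2* mutant, with 1 call for the interaction, *ND-75* (-0.95) in place of *COX6B*; the numbers were not taken to pair these libraries. Against wildtype the block called 0 of the 10 X-linked subunit genes in either single mutant. Over all genes it called 89 lower and 120 higher in the *roX1* mutant, and 17 lower and 15 higher in the *roX2* mutant.

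Directions turned for 3 of the genes named, none of them called: *UQCR-11L* in the *roX1* mutant (-0.48; 0.62 without the 4 libraries, -0.82 to 0.20 with 1 library left out), *ND-13B* in the double mutant against wildtype (-0.06; -0.27 to 0.04 with 1 library left out) and *ND-MWFE* against the *roX1* mutant (0.03; -0.03 with TMM over major autosomes, -0.01 with the replicate block, -0.18 without the 4 libraries, -0.12 to 0.22 with 1 library left out). Depth did not limit the X-linked genes, with at least 1246 counts in every library, but did limit the paralogs, most of which had under 20 counts in most libraries.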
